A study of Mus musculus with 15 samples.

Results

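Synovium of mildly swollen knee joints from mice with collagen-induced arthritis (CIA) was compared with synovium of healthy, naive joints. In this model of inflammatory arthritis, mice are immunized against type II collagen, the main collagen of joint cartilage. The comparison takes the 3 arrays titled as mild joint inflammation, whose source is given as mild swelling, and the 3 arrays titled naive, 6 of the 15 arrays of the series. Per the labels, the mice received 100 µg of type II collagen with an adjuvant abbreviated FCA on day 0 and a boost of 100 µg by the intraperitoneal route on day 21. The naive samples carry the same protocol text, although their source is called healthy, and it was taken to describe the immunized mice. The other 9 arrays hold immunized joints with no, moderate or severe swelling, 3 arrays each, and are used here only to place the mild joints. The labels give no strain, age, sex or day of dissection. The labels do not say whether each array is a different mouse, so p-values here reflect the variation among these samples, part of which may be technical.

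The synovium is the soft tissue that lines a joint. Its lining fibroblasts secrete hyaluronan and lubricin into the joint fluid, and macrophages are interspersed among them. In inflammatory arthritis, neutrophils and monocytes enter the tissue and fluid, the lining thickens, and fibroblasts and macrophages release cytokines such as interleukin-1 and interleukin-6, chemokines and matrix-degrading proteases. RANKL, the product of Tnfsf11, drives macrophage precursors to become osteoclasts, which erode bone.

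Each array gives 1 intensity signal per probe set, in arbitrary units, and values were analysed as log2(signal + 16). A log2 fold change (mild minus naive) on this scale understates the change of dim genes. Of 18193 named genes, 14314 passed a signal filter and were tested with limma, and a gene is said to have risen or fallen where its Benjamini-Hochberg adjusted p over all tested genes was under 0.05. By that rule 3303 genes, 23.1% of those tested, were higher in mildly swollen than in naive joints, and 2440 genes, or 17%, were lower. The higher genes moved further: 1370 rose at least 2-fold and 74 at least 8-fold, against 472 that fell at least 2-fold and 1 that fell at least 8-fold. All 3 mild arrays lay above all 3 naive arrays for 4161 genes (29.1%) and below them for 3517 (24.6%).

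The 3 mild arrays were not alike. On the first principal component over the tested genes, which held 70.3% of the variance, the naive arrays lay between -66.9 and -62.6, and mild replicates 1, 2 and 3 lay at 18.7, -7.42 and 36.0. Mild replicate 2 was thus closest to the naive arrays, and the counts that move most without it are given further on. Without it, 3536 genes (24.7%) were higher and 2641 (18.5%) lower. The median log2 fold change of all tested genes was 0.05 as deposited and 0.58 when the arrays were scaled on 18 hybridization control probe sets, whose mean signal was 809 to 1024 on the naive and 532 to 661 on the mild arrays. With that scaling, 5456 genes were higher and 154 lower, so that 97.3% of the calls were higher, against 57.5% as deposited, 53.0% after quantile normalization and 48.9% with array medians aligned. Directions below are therefore relative to the bulk of the genes. Of the 87 genes named here that fell in mild against naive joints, 29 were still called lower with the control scaling. Falls below that were not called there include all of those in the antioxidant, vessel, smooth muscle, Wnt and oxidative phosphorylation lists. The 3'/5' signal ratio of the actin control was 0.890 to 1.03 on the naive and 1.13 to 1.19 on the mild arrays, that of the Gapdh control 0.826 to 0.888 and 0.842 to 0.857. The part of these ratios in the results was not tested.

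The tissue carried the markers of its label and more. Prg4, which encodes lubricin of the lining fibroblasts, gave 2856, 2148 and 2104 units on the naive and 6280.1, 6448 and 7469 on the mild arrays. Skeletal muscle genes were also bright on every array, with 11919.8, 9285 and 10603 units of skeletal actin (Acta1) on the naive and 8012, 7124 and 7989 on the mild arrays. The adipocyte hormone adiponectin (Adipoq) gave 1597, 750 and 913 and 539, 206 and 597 units. Muscle and fat transcripts were thus present in every sample, and fewer cells of a type and less RNA per cell cannot be told apart in these bulk samples.

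The genes that rose furthest were those of neutrophils, acute-phase proteins, interleukin-6 and a CXC chemokine. S100a9, which encodes a subunit of the alarmin calprotectin, gave 15.2, 15.9 and 20.8 units on the naive and 1843, 1953 and 3920.3 on the mild arrays, a log2 fold change of 6.20 ± 0.48 (SE, adjusted p = 4.3e-07), or 73.3-fold on the log2(signal + 16) scale. Its partner S100a8 gave 22.4, 9.70 and 33.1 against 1538, 1466 and 3456 units, a change of 5.78 ± 0.54 (SE, adjusted p = 2.1e-06). In both, replicate 3 was the brightest mild array and the other two were close to each other, far above all naive arrays. Cxcl5, a chemokine that attracts neutrophils, was near 0 in naive joints (7.10, 4.50 and 1.80 units) and reached 1059.6, 957 and 1716 in mild joints, a change of 5.90 ± 0.21 (SE, adjusted p = 1.4e-10). Saa3, an acute-phase protein made locally in inflamed tissue, went from 31.0, 25.2 and 42.1 to 2516, 1701 and 3252 units, a change of 5.65 ± 0.29 (SE, adjusted p = 1.5e-08). Il6 gave 1.80, 14.1 and 0.7 units in naive and 705, 1074 and 735 in mild joints, a change of 5.34 ± 0.34 (SE, adjusted p = 9e-08). For Il6 replicate 2 was the highest of the mild arrays, whereas for S100a9, S100a8, Cxcl5 and Saa3 it was replicate 3. The groups did not overlap for any of these 5 genes.

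The other 7 of the 12 largest increases included genes of muscle, macrophages and secreted inhibitors. Rrad, a small GTPase found in muscle, gave 47.6, 47.7 and 55.0 units in naive and 3168, 2230 and 2461 in mild joints (log2 fold change 5.30), and Ankrd1, a stress-responsive muscle ankyrin-repeat protein, 127, 175 and 217 and 5542, 3917 and 4799 units (4.67). Serpinb1a, an inhibitor of neutrophil serine proteases, changed by 5.15. Mpeg1, the macrophage pore-forming protein perforin-2, changed by 4.87. Timp1, the secreted metalloproteinase inhibitor, changed by 4.74, lipocalin Lcn2 by 4.55 and arginase Arg1 by 4.47. On the downward side the 12 largest decreases led with Myl3 (-3.21), Bdh1 (-2.87), Myl2 (-2.75), Myh7 (-2.73) and Myh2 (-2.53). Myl3, Myl2 and Myh7 encode myosin chains of slow muscle fibres, Myh2 that of fast oxidative fibres, and Bdh1 an enzyme of ketone body oxidation. Fn3k, Nnat, Perm1, 1700001O22Rik, Slc25a25, Smox and Hhatl completed the 12, between -2.45 and -2.09.

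**Figure D1:**
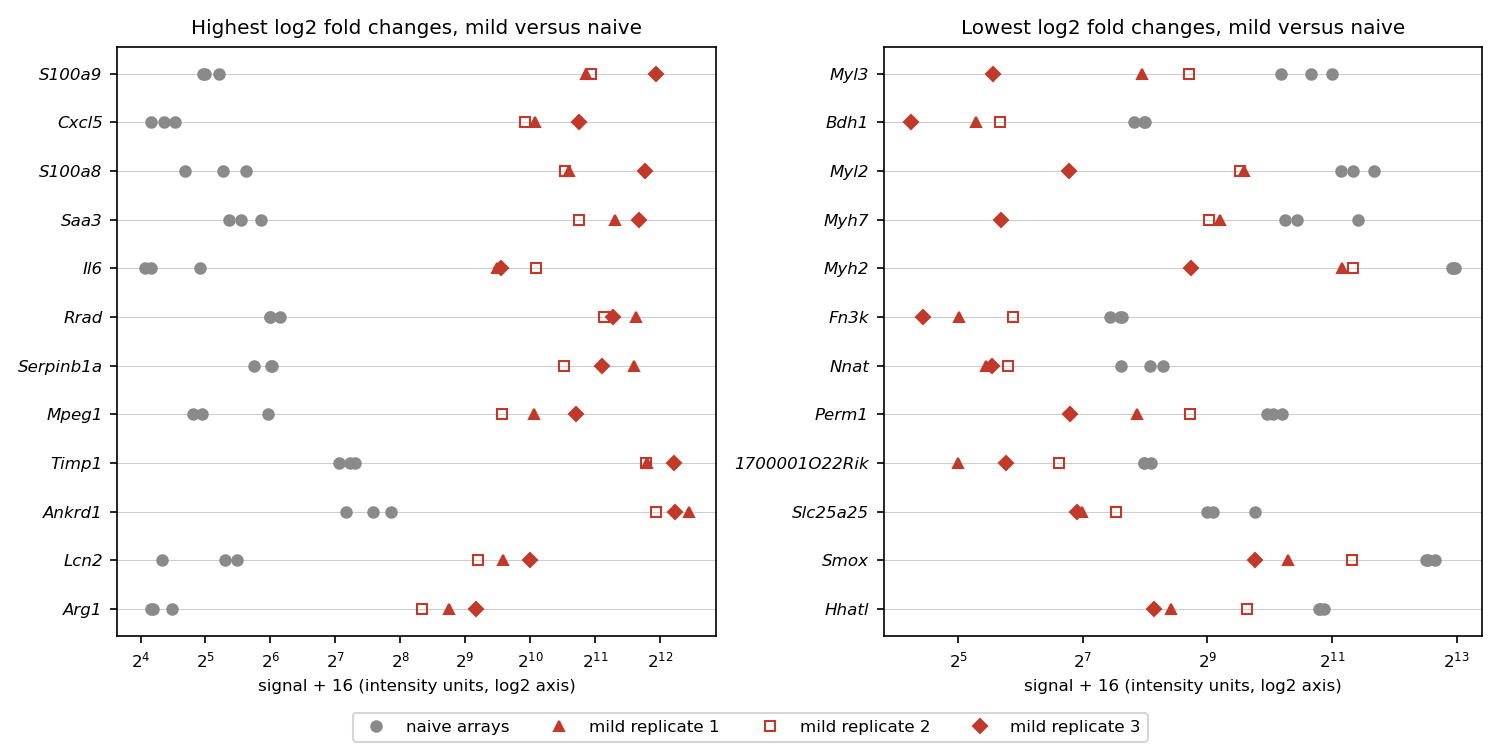
Signals plus 16, in intensity units on a log2 axis, of the 12 genes with the highest and the 12 with the lowest log2 fold changes in mild swelling against naive. Each symbol is 1 array: grey circles are the naive arrays, and red triangles, open squares and diamonds are mild replicates 1, 2 and 3. By the way the genes were chosen the groups do not overlap, and for the lower genes replicate 3 lies farthest from naive in 10 of 12.

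The regions before the start sites of S100a9, S100a8, Saa3 and Il6 are shown because these 4 are among the 5 largest increases and because their transcription is classically tied to C/EBP factors and to acute-phase signals. Each is the 150 bases before the RefSeq start (build GRCm38.p6), 5′ to 3′ on the gene's strand. Capitals mark matches to the C/EBP letters TTNNGNAA on either strand or to TATAAA.
S100a9: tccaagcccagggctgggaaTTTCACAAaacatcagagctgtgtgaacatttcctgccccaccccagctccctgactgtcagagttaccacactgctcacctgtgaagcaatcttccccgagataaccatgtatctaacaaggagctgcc
S100a8: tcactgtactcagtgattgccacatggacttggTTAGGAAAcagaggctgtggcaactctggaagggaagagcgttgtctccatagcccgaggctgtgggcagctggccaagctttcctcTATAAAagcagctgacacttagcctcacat
Saa3: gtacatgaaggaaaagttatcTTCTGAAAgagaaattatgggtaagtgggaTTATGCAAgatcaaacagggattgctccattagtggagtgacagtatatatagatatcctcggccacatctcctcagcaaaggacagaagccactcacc
Il6: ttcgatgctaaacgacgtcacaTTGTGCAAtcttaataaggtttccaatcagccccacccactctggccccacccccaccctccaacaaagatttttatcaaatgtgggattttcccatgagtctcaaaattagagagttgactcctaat

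The 4 windows are chr3:90695722-90695871 (minus strand), chr3:90668921-90669070 (plus), chr7:46715677-46715826 (minus) and chr5:30012964-30013113 (plus). Of the 12 genes with the largest increases, 8 had a promoter entry in the RefSeq table, and 6 of these 8 (75%) held a TTNNGNAA match in the 250 bases before the start, against 36.8% of the 32851 promoters in the table and 29.4% of those of tested genes. The AP-1 letters TGANTCA were in 1 of the 8, that of Il6, against 6.75% of all promoters, and TATAAA in 1, that of S100a8, against 12.4%. The rest of the 8, Mpeg1, Timp1, Ankrd1 and Lcn2, held none of these patterns in the 150 bases before the start. Timp1 and Lcn2 each held 1 TTNNGNAA match farther upstream. For the 12 largest decreases, 11 genes had 18 promoters, of which 9 (50%) held TTNNGNAA and 0 held TGANTCA. These are matches of short letter patterns and do not show binding.

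Among the alarmin and acute-phase genes, 11 of 13 tested members rose and 0 fell, with a median log2 fold change of 2.94. The list of neutrophil-attracting chemokines had 4 of 7 members higher. Cxcl1 went from 138, 112 and 105 to 1524, 1538 and 1825 units, Cxcl2 changed by 2.39 and Cxcl3 by 2.71, while the platelet chemokines Ppbp (-0.03) and Pf4 (0.51) did not pass. Cxcr2, the neutrophil receptor for several of these chemokines, rose by 2.19. Of 21 monocyte- and lymphocyte-directed chemokines 14 rose. Ccl2, the main monocyte attractant, gave 47.8, 20.6 and 32.3 units in naive and 631, 562 and 623 in mild joints, and its receptor Ccr2 gave 50.6, 57.9 and 39.8 and 1141, 740.2 and 1276. For both genes all mild arrays lay far above all naive arrays. The interferon-induced T cell chemokines Cxcl9 (0.25, adjusted p = 0.61) and Cxcl10 (1.17, adjusted p = 0.062) did not pass.

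Of 13 tested proinflammatory cytokines 8 rose and Il12a fell (-0.90). Il1b rose from 36.7, 36.0 and 30.8 to 672, 525 and 705 units, a change of 3.68 ± 0.25 (SE, adjusted p = 1.7e-07), and the epithelial and stromal alarmin Il33 changed by 2.89. Tnfsf11, the RANK ligand, was near 0 in naive joints (2.50, 5.20 and 1.10 units) and gave 61.8, 45.8 and 161 in mild joints, where replicate 3 stood well above the other two. Tnf gave 5.10, 8.60 and 8.10 units in naive and 8.40, 6.90 and 33.6 in mild joints, overlapping and close to the floor of the array, with a change of 0.38 ± 0.46 (SE, adjusted p = 0.54). Il17a gave 28.1, 34.3 and 44.9 and 41.4, 51.8 and 36.3 units, also overlapping, with a change of 0.20 ± 0.18 (SE, adjusted p = 0.41). At such signals a change in either transcript may not have been detectable.

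Cytokine receptors rose in 16 of 20 members. Csf3r, the receptor for the neutrophil growth factor G-CSF, went from 10.7, 39.9 and 17.1 to 514, 476 and 938 units, Il4ra changed by 3.30 and Csf2rb by 2.60. Lifr, the receptor for leukemia inhibitory factor, fell (-1.07). Feedback genes were called in 10 of 16. Socs3, the inhibitor of signalling from the interleukin-6 receptor, gave 134, 162 and 128 units in naive and 2514, 2462 and 2795 in mild joints, a change of 4.05 ± 0.20 (SE, adjusted p = 1.4e-08), and Tnfaip6 changed by 3.69. Il10 (-0.15) and Tnfaip3 (0.13) did not pass.

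Markers of myeloid cells rose together. Of 21 macrophage and monocyte markers 17 were higher and 0 lower, with a median of 2.18, and the summed signal of the list went from 3638 to 3994 units on the naive arrays to 16041, 13076 and 18512 on mild replicates 1, 2 and 3. Cd68, a lysosomal protein of macrophages, gave 113, 83.6 and 91.8 and 524, 363 and 505 units. The 4 members that did not pass were Cd163 (0.44), Vsig4 (0.34), Timd4 (-0.19) and Folr2 (0.41), which are known as markers of resident macrophages. Of 15 neutrophil markers 11 rose, with summed signals of 400.0 to 482 on the naive and 5185, 5245 and 10502 on the mild arrays. The granule genes of maturing neutrophils in that list did not pass (Camp 0.80, Ngp 0.40, Ltf 0.23), and 0 of 4 tested genes of marrow progenitors (Mpo, Elane, Prtn3, Ms4a3) were called, with list sums of 158 to 202 and 167 to 208 units.

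All 12 tested Fc receptor and ITAM signalling genes rose, among them Tyrobp, an adaptor of myeloid receptors, from 102, 99.3 and 92.4 to 1086, 844 and 1618 units, and the common Fc receptor chain Fcer1g (2.67). All 6 tested NADPH oxidase genes rose, led by the subunits Ncf4 (2.64), Ncf1 (2.48) and Cyba (2.38). Of 12 antioxidant genes 3 were higher (Hmox1 2.03, Sod3 1.72, Gpx1 0.57) and 3 lower (Sod1 -0.58, Gclc -0.47, Sod2 -0.41), or 25% each way, near the 23.1% and 17% of all genes. The 3 lower ones turned above 0 with the control scaling (-0.02 and 0.59 for the list median). Of 16 Toll-like receptor and inflammasome genes 14 rose, with Tlr13 at 2.39, Cd14 at 2.44 and the adaptor Myd88 at 1.67. Complement genes rose in 9 of 14, led by the anaphylatoxin receptor C3ar1 (3.33) and the C1q chain C1qb (2.09), and the inhibitor Cd59a fell (-0.61, or 0.007 with the control scaling). Of 13 adhesion genes 10 rose, led by P-selectin (Selp), which gave 7.80, 15.0 and 12.3 units in naive and 254, 322 and 306 in mild joints, and the hyaluronan receptor Cd44 (2.63).

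T and NK cell markers rose in 9.09% and interferon response genes in 11.1%, against 23.1% of all genes. Falls were 9.09% and 0%, against 17% of all genes. Of 11 T and NK cell markers 1 rose (Cd3g 0.82, adjusted p = 0.031) and 1 fell (Cd27 -0.88, adjusted p = 0.036), and the defining marker Cd3e gave 8.60, 12.2 and 9.80 units in naive and 22.5, 27.3 and 52.8 in mild joints with an adjusted p of 0.076. Of the 17 listed T and NK genes on the array, 8 lay under the 40th percentile on all 6 arrays, Cd3d, Cd4 and Foxp3 among them. The median of the 11 was -0.02, or 0.34 with the control scaling. Of 13 B and plasma cell genes 4 rose and 1 fell, or 30.8% and 7.69%, against 23.1% and 17% of all genes. Those that rose were Sdc1 (2.13), Blnk (1.13), Xbp1 (1.01) and Prdm1 (0.65), all also made by other cells. The B cell markers Cd79a (-0.23), Ms4a1 (0.15) and Pax5 (0.21) did not pass. Ighm fell (-1.74) on its brightest probe set, and its 11 probe sets averaged gave -0.42 (adjusted p = 0.059). Antigen presentation on class II rose in 9 of 11 genes, with H2-Aa at 2.68 and Cd74 at 2.43, and class I genes rose in 9 of 12 by smaller amounts (median 0.56). The class I count was 3 without mild replicate 3, 5 without mild replicate 1 and 4 to 6 without 1 naive array. Of 18 interferon response genes 2 rose, Oas1a (0.92) and Oasl2 (0.59). Without mild replicate 2 the count was 6, without mild replicate 1 or 3 or naive replicate 2 or 3 it was 1, and the call of Oasl2 was lost under 10 of its alternatives.

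Of 16 fibroblast genes of the lining and sublining 10 rose and Clic5, a lining marker in this list, fell (-0.87). Pdpn, a surface protein of lining fibroblasts, gave 226, 234 and 220.3 units in naive and 1342, 1070.1 and 1619.5 in mild joints, and Vcam1, an adhesion receptor on those cells, gave 58.0, 62.0 and 47.3 and 448, 246 and 525. Prg4 rose by 1.51 ± 0.23 (SE, adjusted p = 0.00012). Thy1, the marker of sublining fibroblasts, did not pass (0.33, adjusted p = 0.22). In the hyaluronan list 8 of 10 rose. The synthase Has2 gave 29.4, 25.9 and 33.9 units in naive and 331, 301 and 333 in mild joints, with mild replicates close together, and Tnfaip6, which modifies hyaluronan during inflammation, gave 51.4, 84.2 and 45.2 and 770.3, 892 and 1234.

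**Figure D2:**
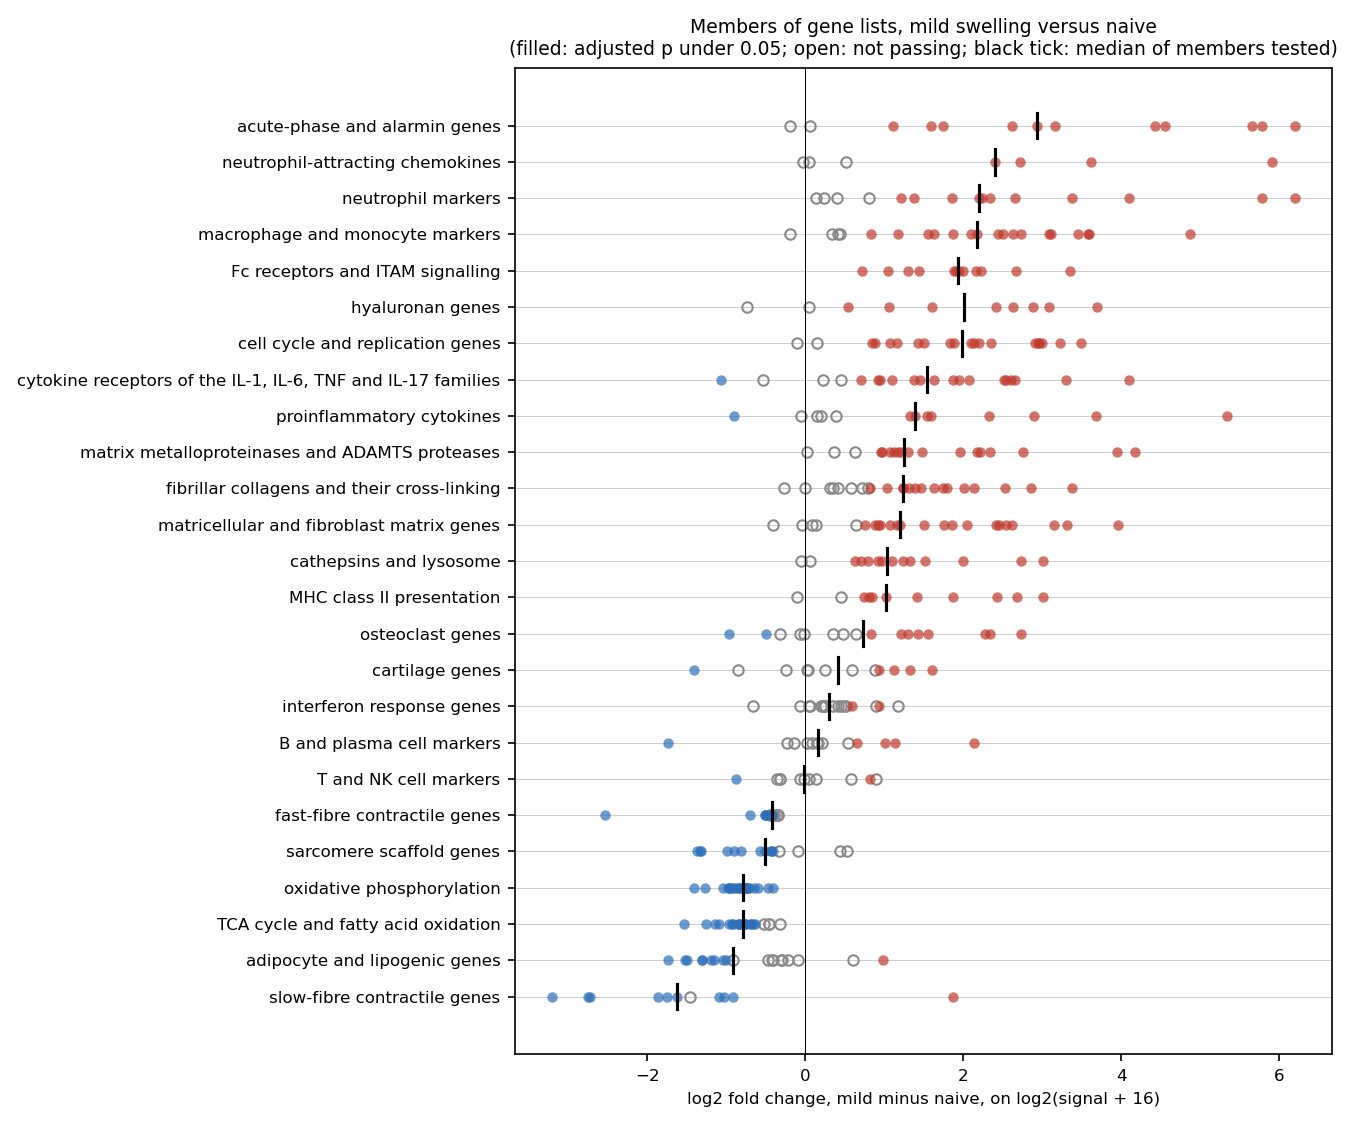
Log2 fold changes of mild against naive for the tested members of 25 gene lists. Each point is 1 gene, filled red or blue where it rose or fell at an adjusted p under 0.05 and open where it did not pass, and the black tick is the median of the list. The inflammatory and matrix lists lie to the right of 0, oxidative phosphorylation and most muscle genes to the left.

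Matrix-degrading enzymes rose in 15 of 18, with 0 lower. Mmp3, stromelysin-1, gave 104, 95.5 and 60.1 units in naive and 2147, 889.8 and 3038 in mild joints, a change of 4.17 ± 0.37 (SE, adjusted p = 1.3e-06). Mmp13, the main collagenase of rodent joints, gave 0.8, 7.10 and 3.10 and 215, 82.2 and 1169.8 units, a change of 3.94 ± 0.73 (SE, adjusted p = 0.00056), and its mild arrays spread over more than a log2 unit on each side of their middle value. The aggrecanase Adamts4 changed by 2.76 and Adamts5 by 1.17. The inhibitors were divided, with 4 of 10 higher (Timp1, Slpi 4.43, Serpina3n 2.66, Serpinh1 1.23) and 3 lower (Timp4 -1.58, Timp3 -0.53, Cst3 -0.50). Cathepsins and other lysosomal genes rose in 12 of 14, led by Ctss (3.01), Ctsk (2.72) and Ctsh (1.99).

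Among fibrillar collagens and their processing enzymes 15 of 23 rose and 0 fell, led by lysyl oxidase Lox (424, 409.5 and 402 units in naive and 4833, 2982 and 6013 in mild joints) and by Plod2 (2.86), both of which cross-link collagen. Col1a1 gave 2133, 2275 and 2636 and 6457, 4608 and 6691 units, a change of 1.31 ± 0.30 (SE, adjusted p = 0.0026), while Col1a2 (0.31, adjusted p = 0.32) and Col3a1 (0.35, adjusted p = 0.16) did not pass. Matricellular genes rose in 18 of 23, with periostin Postn from 334, 546 and 404 to 4149, 2492 and 5443 units and Cthrc1 from 52.3, 47.7 and 34.8 to 1376, 296 and 1877. In both, and in Lox and Col1a1, replicate 2 was the lowest mild array. Without replicate 2 the counts were 19 of 23 in both lists.

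Cartilage genes rose in 4 of 12, namely Acan (24.2, 25.3 and 38.0 and 92.4, 56.6 and 299 units, 1.60), Col2a1 (12.1, 20.2 and 49.1 and 67.1, 61.5 and 147 units, 1.33), Col11a1 (1.12) and Col11a2 (0.93), and Chad fell (-1.41). These are 33.3% and 8.33%, against 23.1% and 17% of all genes. Of the 18 listed cartilage genes on the array, Col9a2, Col9a3, Matn1 and Col10a1 lay under the 40th percentile on all 6 arrays. The summed signal of the cartilage list was 1910.2 to 2225 units on the naive arrays and 3151, 1421 and 4374 on mild replicates 1, 2 and 3, so replicate 2 lay below the naive range. Of 16 osteoclast genes 8 rose, with Acp5, the osteoclast acid phosphatase, from 113, 79.0 and 84.5 to 293, 173 and 512 units and Ctsk, the bone-degrading cathepsin, from 160, 157 and 134 to 1328, 534 and 1759. Ctsk is also counted in the cathepsin list. Of the 17 listed osteoclast genes on the array, Calcr, Dcstamp and Ocstamp lay under the 40th percentile on all 6 arrays. Whether osteoclasts were present was not tested. Car2, which acidifies the osteoclast's resorption space, fell (-0.97), and so did Nfatc1 on its brightest probe set (-0.50), although another of its 5 probe sets was called in the opposite direction. Of 4 tested bone-forming genes 1 rose (Ifitm5 0.71) and 1 fell (Alpl -0.85). That is 25% each way, near the 23.1% and 17% of all genes.

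Cell division genes rose in 18 of 20, with 0 lower and a median of 1.98. The proliferation marker Mki67 gave 31.7, 25.3 and 24.5 units in naive and 323, 208 and 471 in mild joints, a change of 2.95 ± 0.33 (SE, adjusted p = 8.6e-06). Rrm2, a subunit of ribonucleotide reductase, changed by 3.22, the replication helicase subunit Mcm5 by 2.91 and Cdc20 by 2.99. Genes of folding and secretion in the endoplasmic reticulum rose in 16 of 20, among them the translocon genes Sec61a1 (2.04) and Sec61b (1.25), and Herpud1 fell (-0.44, or 0.193 with the control scaling). Immediate early genes rose in 11 of 16, with Junb from 69.3, 73.5 and 56.6 to 708, 671 and 823 units and Fosl2 at 2.01, while Nr4a1 fell (-0.82) and Jun (-0.79) and Atf3 (0.14) did not pass.

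Of 16 prostanoid and leukotriene genes 10 rose and 1, the synthase Ptges2, fell (-0.85). Ptgs2, the inducible cyclooxygenase, gave 5.90, 3.50 and 2.0 units in naive and 399.9, 306 and 506 in mild joints, a change of 4.38 ± 0.29 (SE, adjusted p = 1.3e-07). Alox5ap, which presents arachidonate to 5-lipoxygenase, changed by 2.79, and the prostaglandin E2 receptor Ptger4 by 1.83. In the growth factor lists, TGF-beta and activin genes rose in 13 of 20, with the latent TGF-beta binding protein Ltbp2 at 3.17 and Tgfb1 at 1.73, and Bmp6 (-1.09), Tgfb2 (-0.90) and Tgfb3 (-0.51) fell. Of 13 Wnt ligands and antagonists 1 rose (Sfrp1 2.10) and 3 fell (Frzb -0.99, Dkk2 -0.78, Wnt5a -0.60). These are 7.69% and 23.1%, against 23.1% and 17% of all genes. The Wnt list median was -0.38, and 0.09 with the control scaling.

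Of 18 endothelial and angiogenic genes 3 rose and 4 fell (16.7% and 22.2%), near the 23.1% and 17% of all genes. Those that rose were the endothelial marker Pecam1 (0.50), Plvap (1.33) and Angpt2 (0.70), the last not called when its probe sets were averaged (0.36, adjusted p = 0.062). The growth factor Vegfa fell from 925, 1179 and 978 to 393, 595 and 363 units, a change of -1.19 ± 0.18 (SE, adjusted p = 0.00011), and its receptors Flt1 (-0.62) and Kdr (-0.60) and the ligand Angpt1 (-0.36) fell too. The list median was 0.05 and turned to -0.03 with array medians aligned, and none of the 4 falls was called with the control scaling, where Vegfa was -0.56 (adjusted p = 0.18), Flt1 -0.02 (adjusted p = 0.96) and Angpt1 0.25. Of 10 smooth muscle and pericyte genes Mcam rose (1.16) and 4 fell, with Smtn at -1.08, Tagln at -0.88, Myh11 at -0.82 and Rgs5 at -0.45. Their list median was -0.27, or 0.36 with the control scaling.

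Mitochondrial energy genes fell as a group. Relative to the bulk of the genes, all 24 tested oxidative phosphorylation genes were lower, with a median of -0.79, and 18 of 22 genes of the citric acid cycle and fatty acid oxidation, with the same median. Ndufs1, a complex I subunit, gave 3268, 3227 and 3642 units in naive and 1431, 1873 and 991 in mild joints, a change of -1.27 ± 0.20 (SE, adjusted p = 0.00013). With the control scaling 0 of the 24 and 1 of the 22 were called by limma, and Ndufs1 was -0.64 (adjusted p = 0.11). The oxidative phosphorylation median was then -0.16, -0.73 relative to all genes there, against -0.84 relative to all genes as deposited. Skeletal muscle is rich in these transcripts, and its markers moved with them: the summed signal of the sarcomere scaffold list was 83113 to 92208 units on the naive arrays and 62423, 65416 and 54900 on mild replicates 1, 2 and 3. The part of muscle RNA in the mitochondrial result was not tested.

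Of 11 slow-fibre contractile genes 9 fell, with a median of -1.63. Myl3 gave 1612, 2023 and 1144 units in naive and 232, 403 and 31.1 in mild joints, Myl2 2564, 3229.7 and 2239 and 751, 717 and 93.7, and Myh7 1373, 2704 and 1201 and 575, 503 and 35.7. Replicate 3 was the lowest mild array for each, more than a log2 unit below the other two. Leaving out mild replicate 3, the changes of Myh7 (-1.59, adjusted p = 0.13), Myl2 (-1.83, adjusted p = 0.055) and Myh2 (-1.70, adjusted p = 0.082) no longer passed. Tpm3 was the slow-list member that rose (1.87) on its brightest probe set, and the mean of its 5 probe sets gave 0.31 (adjusted p = 0.50). Of 16 fast-fibre genes 8 fell, with a median of -0.42. Myh2 changed by -2.53 and the other 7 called members by -0.70 to -0.42. The slow-fibre count was 4 without mild replicate 3 and 5 without naive replicate 2, and the fast-fibre count was 2 without mild replicate 3, 3 without naive replicate 1, 4 without naive replicate 3, and 6 without mild replicate 1 or 2 or naive replicate 2. With the control scaling 7 slow-fibre genes and 1 fast-fibre gene were lower, and the fast-fibre median was 0.22, still -0.36 relative to all genes, and Casq1 turned from -0.52 to 0.12.

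Of 15 sarcomere scaffold genes 11 fell (median -0.51, or 0.13 with the control scaling) and of 15 calcium-handling and membrane genes 12 fell (median -0.90). The potassium channel Kcnj12 (-1.76) and the Z-disc protein Ldb3 (-1.32) led these lists. With the control scaling 0 and 2 of these genes were called lower. Of 15 muscle regulator genes 4 rose and 2 fell, or 26.7% and 13.3%, near the 23.1% and 17% of all genes. Chrna1, the muscle acetylcholine receptor subunit that increases after denervation, changed by 3.54 ± 0.76 (SE, adjusted p = 0.0017), Ncam1 from 5.10, 3.80 and 3.90 to 59.1, 48.2 and 122 units (2.11), and Gadd45a (2.22) and Runx1 (2.21) rose as well. Myod1 (-1.11) and Mef2c (-0.78) fell. The regeneration genes Myog (-0.32), Pax7 (-0.18) and Myh3 (-0.51) and the atrophy ligases Fbxo32 (0.01) and Trim63 (0.64) did not pass. The median of the muscle regulator list was -0.10, or 0.28 with the control scaling.

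Of 20 glycolysis and glycogen genes 5 rose, Pgam1 (1.65), Pfkl (1.5), Hk1 (1.12), Pfkp (0.68) and the lactate carrier Slc16a1 (0.65), forms that many non-muscle cells use. The 25% that rose was near the 23.1% of all genes, and 60% fell, against 17%. The 12 that fell included the muscle forms Pgam2 (-0.81), Pfkm (-0.64) and Eno3 (-0.50) and the lactate exporter Slc16a3, which went from 2038, 1882 and 2369 to 449.5, 762 and 412 units. With the control scaling 3 of the 12 were called, and the list median was -0.50, or 0.14 with the control scaling. Of 19 adipocyte and lipogenic genes 9 fell, with Slc2a4, the insulin-dependent glucose transporter of fat and muscle, at -1.74 and Lpl at -1.31, and Acly rose (0.98). Averaged over their probe sets, neither Acly (0.18, adjusted p = 0.32) nor Slc16a1 (0.22, adjusted p = 0.13) was called, and with the control scaling 3 of the 9 falls were, without Lpl (-0.67, adjusted p = 0.081). Adipoq (-1.31) passed narrowly (adjusted p = 0.049) and did not pass without mild replicate 2 (-0.84, adjusted p = 0.2). The summed adipocyte list was 21402 to 28676 units on the naive and 13626 to 14128 on the mild arrays, and its part in the fall of the lipid genes was not tested. Of 17 cholesterol genes 2 rose and 2 fell, or 11.8% each way, against 23.1% and 17% of all genes. The lipid exporter Abca1 (1.70) and the lipid carrier Apoe (2.22) were higher, and Sc5d (-0.79) and Idi1 (-0.40) lower. The cholesterol list median was -0.16, or 0.45 with the control scaling.

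Of 17 clock genes 7 rose, including Dbp, from 182, 171 and 213 to 741, 947 and 757 units, and Per1 (1.49), and 6 fell, including Arntl (-1.58), which drives the clock, and Nfil3 (-1.36). The time of day of dissection was not given in the sources used here. Of 15 heat shock genes 3 rose, Hspb7 (0.99), Hspb1 (0.66) and Hsp90aa1 (0.53), or 20%, near the 23.1% of all genes. A further 5 fell (33.3%, against 17% of all genes), with Hspa1a from 197, 148 and 278 to 52.0, 38.1 and 53.4 units and Hspa1b at -1.23. Averaged over their probe sets Hsp90aa1 was -0.03 and Hspb7 0.85 (adjusted p = 0.063). The list medians, -0.20 and -0.16, were 0.36 and 0.48 with the control scaling.

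Markers of other tissues that a dissection could carry were followed as well. Keratinocyte genes fell in 2 of 6 (Krt10 -0.72, Krt5 -0.65), with list sums of 426 to 512 units on the naive and 268 to 312 on the mild arrays. Their median was -0.45, and 0.00 with the control scaling. Erythroid genes fell in 2 of 6 (Alas2 -1.77, Tfrc -0.99), with sums of 2375 to 2556 and 948 to 1733. The erythroid median was 0.09, or 0.44 with the control scaling, where Tfrc was not called (-0.36, adjusted p = 0.40). Nerve genes fell in 1 of 7 (Ncmap -1.03), or 14.3%, near the 17% of all genes. The nerve list had sums of 1058 to 1124 and 1046 to 1261 and a median of -0.25, or 0.25 with the control scaling. Of 10 tendon and ligament genes 5 rose (Egr1 1.97, Col14a1 1.62, Scx 1.45, Thbs4 0.89, Mkx 0.74) and Chodl fell (-0.81), while the tendon marker Tnmd did not pass (-0.01). These are 50% and 10%, against 23.1% and 17% of all genes. Mkx was not called with array medians aligned (0.66, adjusted p = 0.077) or in the fit on only the groups compared (adjusted p = 0.13). Mast cell genes rose in 2 of 8, or 25%, near the 23.1% of all genes. They were Hdc (2.24) and Kit (1.81), both also made by other cells. The mast cell proteases Cpa3 (0.12) and Mcpt4 (-0.39) did not pass, and the list median was 0.03, or 0.57 with the control scaling.

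How far each mild array had moved was measured on genes called without it. The same naive arrays served to call the genes and to place the array left out. The choice of probe set and the signal filter used all 15 arrays. Each mild array was left out in turn, genes were called from the other two against naive, and the left-out array was placed on a scale from 0, the naive mean, to 1, the mean of the other two mild arrays. Of the genes called higher without it, replicate 1 lay above all naive arrays in 98.7%, replicate 2 in 89.4% and replicate 3 in 98.1%, against 41.4% to 42.1% of all tested genes. Median positions were 1.02, 0.63 and 1.29 for the higher genes and 1.0, 0.55 and 1.38 for the lower genes. All 3 arrays thus went in the called direction for most genes, replicate 2 by the least and replicate 3 by the most. Some calls named above rested on single arrays. Without mild replicate 1 the mild against naive differences of Adipoq, Angpt1, Cd27, Cd3g, Col11a1, Col11a2, Gclc, Gpx1, Hspb1, Hspb7, Ifitm5, Kdr, Mkx, Oasl2, Pecam1, Pfkp, Sod2 and Wnt5a no longer passed, and without replicate 2 those of Adipoq, Angpt1, Col11a2 and Hspb7. Without replicate 3 this held for Alpl, Angpt1, Angpt2, Cd3g, Col11a1, Col2a1, Flt1, Gclc, Gpx1, Hsp90aa1, Hspb1, Krt5, Mkx, Myh11, Myh2, Myh7, Myl2, Myod1, Oasl2, Pfkp, Rgs5 and Sod2. Of these and of Idi1, a call was also lost without naive replicate 1 for Adipoq, Cd27, Cd3g, Col11a1, Col11a2, Col2a1, Hspb1, Hspb7, Idi1, Ifitm5, Krt5 and Myh11, without naive replicate 2 for Angpt1, Angpt2, Gclc, Hsp90aa1, Hspb1, Mkx, Myh7, Oasl2, Pfkp, Sod2 and Wnt5a, and without naive replicate 3 for Adipoq, Angpt1, Cd27, Cd3g, Col11a1, Gclc, Hspb7, Kdr, Krt5, Mkx, Myh11, Oasl2, Sod2 and Wnt5a. Averaging the probe sets of a gene also removed the calls of Gclc, Idi1, Myh11 and Wnt5a.

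Counts of list members also moved with single arrays, by over 1.5 times in the lists below besides those already given. The number lower of 15 sarcomere scaffold genes was 11 with all arrays and 7 without mild replicate 3. The 4 cartilage genes that rose became 1 without naive replicate 1 and 2 without mild replicate 3, and the 5 of 12 cytosolic ribosomal protein genes that rose became 2 without either of these arrays and 3 without naive replicate 2. These 5 ribosomal genes are 41.7%, against 23.1% of all genes, and the list median was 0.27. Against immunized joints without swelling 0 of the 12 were higher and 1 was lower. Averaged over their probe sets, Rps6 (0.40, adjusted p = 0.051) and Rps18 (0.30, adjusted p = 0.12) were not called. Of the heat shock genes 1 rose without mild replicate 1 or 3 or naive replicate 1 or 2, and 3 fell without mild replicate 3 or naive replicate 1 or 3. Of the antioxidant genes 1 fell without mild replicate 1 or 3 or naive replicate 2 or 3. In the Wnt list 3 rose and 5 fell without mild replicate 2, and 1 fell without naive replicate 2. In the vessel list 5 rose without mild replicate 2, 2 rose and 2 fell without mild replicate 1 or 3, and 2 fell without naive replicate 3. The 4 smooth muscle genes that fell became 2 without mild replicate 3, and the 2 cholesterol genes that fell became 4 without mild replicate 2. Other lists in which 0 to 2 genes were called in a direction, such as the keratinocyte, nerve, T and NK, bone-forming and muscle regulator lists, gained or lost at most 1 call there. The counts of the neutrophil, macrophage, chemokine, acute-phase, cell cycle and oxidative phosphorylation lists stayed within 1.5 times.

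The position of replicate 2 ranged widely over the lists. Its median position was 0.94 for neutrophil-attracting chemokines, 0.89 for neutrophil markers, 0.89 for cytokines and 0.84 for acute-phase genes. For fibrillar collagens it was 0.46, for matricellular genes 0.50, for cathepsins 0.55 and for oxidative phosphorylation 0.57. On replicate 3 the same lists lay at 1.11, 1.24, 1.09, 1.18, 1.48, 1.45, 1.48 and 1.70. The scale divides by the size of each gene's change, and the differences between lists were not tested.

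**Figure D3:**
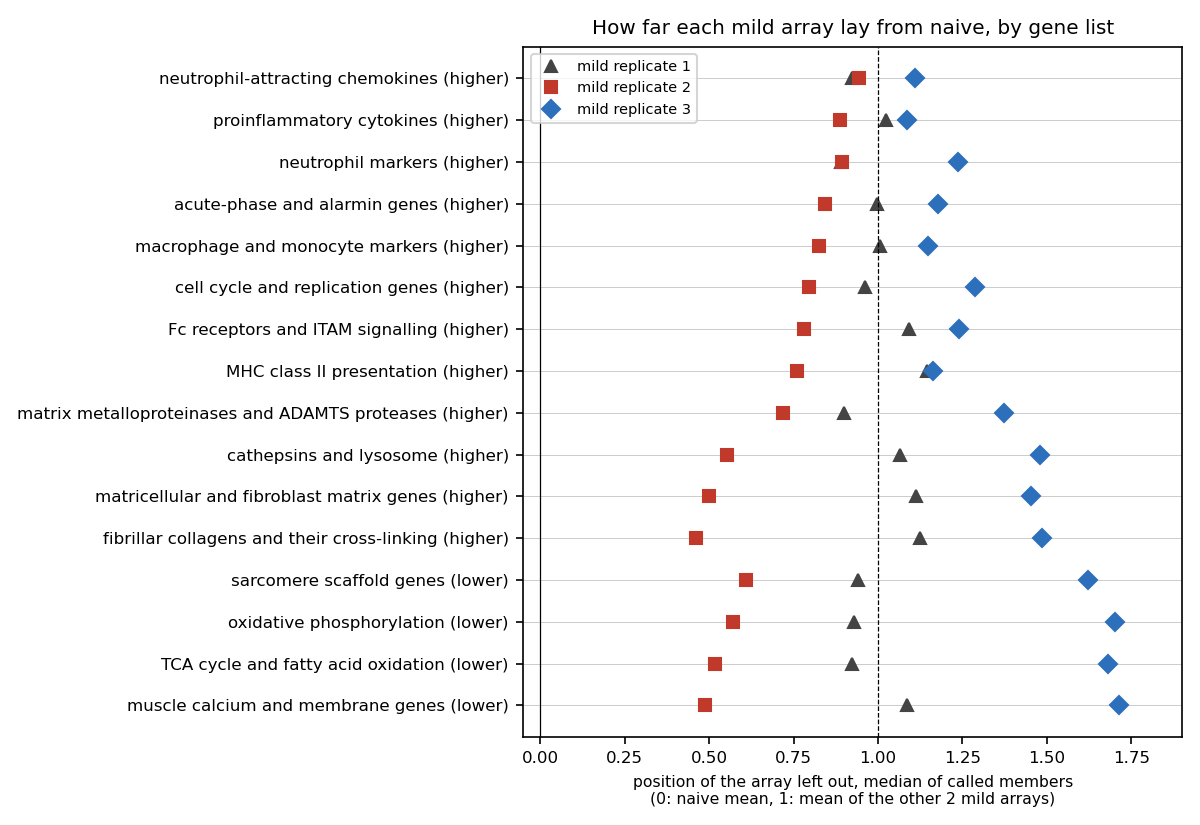
Median position of each mild array over the called members of 16 gene lists, from fits without that array, where 0 is the naive mean and 1 the mean of the other 2 mild arrays. Triangles, squares and diamonds are mild replicates 1, 2 and 3. Replicate 2 lies near 0.9 for cytokines and chemokines and near 0.5 for collagens, and replicate 3 lies to the right of 1 throughout.

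The called genes with the largest spread over the mild arrays were Myh7, Mfap4, Mmp13, Ecrg4, Tnn and Crabp2. Mfap4, a microfibril-associated glycoprotein, gave 6.30, 6.70 and 9.60 units in naive and 292, 12.5 and 226 in mild joints, and Tnn, tenascin-W, gave 5.90, 8.30 and 7.80 and 389, 58.1 and 774. The retinoic acid binding protein Crabp2 gave 12.5, 2.20 and 8.30 and 167, 25.3 and 421 units, and Ecrg4 60.2, 74.1 and 77.1 and 358, 55.3 and 821. The mild against naive call of Ecrg4 was lost without any 1 of the 3 naive arrays, mild replicate 1 or mild replicate 3. In all 4 genes replicate 2 was the lowest mild array, and for Ecrg4 it lay below all naive arrays, while replicates 1 and 3 were far above them.

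Mildly swollen joints were set against immunized joints without swelling to see which changes went with the swelling. That comparison shares the mild arrays with the one above. In it 3286 genes (23%) were higher and 2230 (15.6%) lower in the mild joints, and without mild replicate 2 the counts were 3487 and 2414. Cxcl5 was highest (3.90), followed by Ptgs2 (3.25), Cthrc1 (3.21), Slpi (3.09), Ankrd1 (3.09) and C1qtnf3 (3.06). Fn3k (-2.22), Ank1 (-1.91), Adipoq (-1.89), Ky (-1.89), Phgr1 (-1.85) and Plcd4 (-1.80) were lowest. Macrophage markers were higher in 18 of 21, cell cycle genes in 18 of 20, collagens and their enzymes in 20 of 23, and all 24 oxidative phosphorylation genes were lower, of which 0 were called by limma with the control scaling.

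Some genes already differed from naive in joints without swelling. S100a9 gave 1154, 437 and 146 units in immunized joints without swelling, a change from naive of 3.73 ± 0.48 (SE, adjusted p = 0.00068), and Socs3 gave 1704, 1147 and 1096, a change of 3.06 ± 0.20 (SE, adjusted p = 9e-07). From there to mild swelling S100a9 rose by a further 2.46 and Socs3 by 1.0. Has2, in contrast, gave 29.5, 29.7 and 28.3 units without swelling, a change of -0.01 ± 0.20 (SE, adjusted p = 0.98), and rose by 2.90 ± 0.20 (SE, adjusted p = 1.7e-06) between no and mild swelling. Dbp gave 2024, 1784 and 2141 units without swelling and changed from there to mild swelling by -1.27 ± 0.21 (SE, adjusted p = 0.00035), or -0.46 with the control scaling (adjusted p = 0.24). The slow-fibre median against naive was -2.17 without swelling and -1.63 with mild swelling, and between those groups Tpm3 was higher and Myh7b lower in mild joints. The slow-fibre median of mild against no swelling was 0.42, and -0.19 to 1.15 without 1 array at a time. It was under 0 without mild replicate 1 or 2 or without replicate 1 or 3 of the joints without swelling. In mild joints 5 slow-fibre genes were higher without replicate 2 of the joints without swelling, and 6 with the control scaling. Of 16 fast-fibre genes 15 were lower in mild joints than without swelling, and 0 were called by limma with the control scaling.

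**Figure D4:**
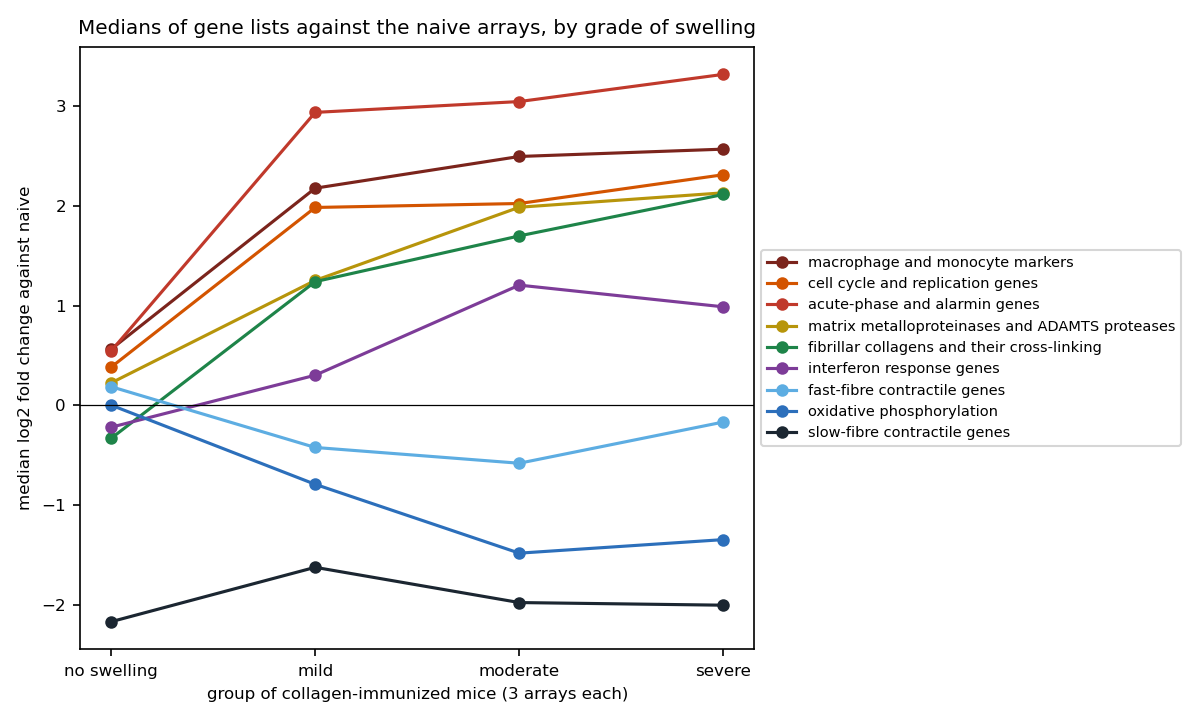
Median log2 fold change against the 3 naive arrays for 9 gene lists in each group of immunized mice, by swelling. The macrophage median is 0.56 without and 2.18 with mild swelling, and the slow-fibre median is lowest without swelling. The slow-fibre median of mild against no swelling changed sign without single arrays. All 4 groups are set against the same naive arrays, and the grades are not a time course.

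Set against stronger swelling, mild joints differed in fewer genes. In moderate against mild joints 473 genes (3.3%) were higher and 491 (3.43%) lower, and in severe against mild 879 (6.14%) and 878 (6.13%). These counts moved with single arrays. Without mild replicate 2 they were 78 and 119 for moderate and 242 and 319 for severe, and without mild replicate 3 they were 1076 and 957 for moderate and 1387 and 1206 for severe. Leaving out mild replicate 1 gave 196 and 202 for moderate and 424 and 456 for severe. Leaving out a moderate array gave 305 and 288 (replicate 1), 81 and 158 (replicate 2) or 163 and 222 (replicate 3). Leaving out a severe array gave 119 and 185 (replicate 1), 1314 and 1305 (replicate 2) or 306 and 446 (replicate 3). Fits on only the 6 arrays compared gave 3 and 9 for moderate and 31 and 55 for severe. Mmp13 was the highest in both (215, 82.2 and 1169.8 units in mild, 2914, 4768 and 3572 in moderate and 3554, 3752 and 2099 in severe joints), with changes of 3.62 ± 0.73 (SE, adjusted p = 0.012) and 3.35 ± 0.73 (SE, adjusted p = 0.011), and neither passed without mild replicate 2 (adjusted p = 0.057 and 0.054) or in fits on only the groups compared (0.066 and 0.064). The moderate difference also did not pass without moderate replicate 2 (0.052), nor the severe one without severe replicate 1 (0.058). Matn4, a matrilin of cartilage matrix, was higher by 2.38 and 2.65, and Mfap4 by 2.72 and 2.81. For Mfap4 neither passed in fits on only the groups compared (adjusted p = 0.10 and 0.096), nor the moderate one without moderate replicate 2 (0.074) or the severe one without severe replicate 1 (0.065). Sln, sarcolipin of the muscle calcium pump, gave 222, 202 and 90.3 units in mild, 1957, 1625 and 2958 in moderate and 1306, 2396 and 395 in severe joints, and its severe against mild difference did not pass without severe replicate 1 (adjusted p = 0.070) or in the fit on only those groups (0.064).

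Several genes of the collagen and osteoclast lists were higher still at stronger swelling. All of the following counts moved with single arrays, and fits on only the 6 arrays compared called 0 members of each list by limma. Osteoclast genes were higher in moderate than in mild joints in 6 of 16 (1 to 7 without 1 array), among them Acp5 (1.81) and Ctsk (1.54). Ctsk did not pass without mild replicate 2 (1.04, adjusted p = 0.066) and neither gene without moderate replicate 2. Their median was 0.53, and 0.49 without mild replicate 2. In addition, 13 of 23 collagen and cross-linking genes were higher in severe joints (2 to 17 without 1 array), with a median of 0.88, or 0.57 without mild replicate 2. Interferon response genes were higher in moderate joints in 5 of 18 (Rsad2, Cxcl9, Ifit3, Gbp2 and Usp18), and in 0 to 9 without 1 array, 0 being the count without mild or moderate replicate 2. Their median was 0.76, or 0.59 without mild replicate 2. Oxidative phosphorylation genes were lower in moderate joints in 17 of 24, with a median of -0.60. Without mild replicate 2 only 1 was called and the median was -0.49, and without another 1 of these arrays the count was 2 to 22. By limma 0 of 21 macrophage markers, 0 of 12 Fc receptor genes and 0 of 11 class II genes were called between mild and moderate or severe joints, and of 20 cell cycle genes 1, Aurka, was called, lower in moderate joints. Median changes of the macrophage, Fc receptor, class II and cell cycle lists from mild to severe were 0.13, 0.50, 0.04 and 0.23. A gene that did not pass is not thereby shown to be equal between the grades.

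Rrad, among the largest increases in mild joints, was lower again at stronger swelling. Rrad gave 1508, 363 and 554 units without swelling, 3168, 2230 and 2461 in mild, 1018, 598 and 472 in moderate and 295, 773 and 269.5 in severe joints, with changes from mild of -1.95 ± 0.43 (SE, adjusted p = 0.018) and -2.66 ± 0.43 (SE, adjusted p = 0.0031). All 3 mild arrays lay above every other array of the series for this gene. The difference from severe joints passed under every alternative tried, while that from moderate joints did not pass without mild replicate 1 (adjusted p = 0.065), mild replicate 2 (0.056), moderate replicate 2 (0.068) or moderate replicate 3 (0.068). Serpinb1a gave 3092, 1450.4 and 2179 units in mild, 1182, 1013 and 861 in moderate and 861, 784 and 1154 in severe joints, with changes of -1.07 ± 0.29 (SE, adjusted p = 0.041) and -1.20 ± 0.29 (SE, adjusted p = 0.019). For Serpinb1a neither passed without mild replicate 1 (-0.81, adjusted p = 0.15, and -0.94, adjusted p = 0.078). The moderate difference also did not pass without mild replicate 3 or any 1 of the moderate arrays, with a pseudocount of 1, with no filter or with no intensity trend, nor the severe one without severe replicate 1. In fits on only the groups compared neither passed (0.088 and 0.066). The differences of Il6 (-0.72 and -0.96) and Ankrd1 (-0.62 and -1.35) did not pass. Asb5, a muscle ubiquitin ligase adaptor, was not called between mild and naive joints (0.31) and differed between severe and mild joints by -2.23 ± 0.28 (SE, adjusted p = 0.00084).

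**Figure D5:**
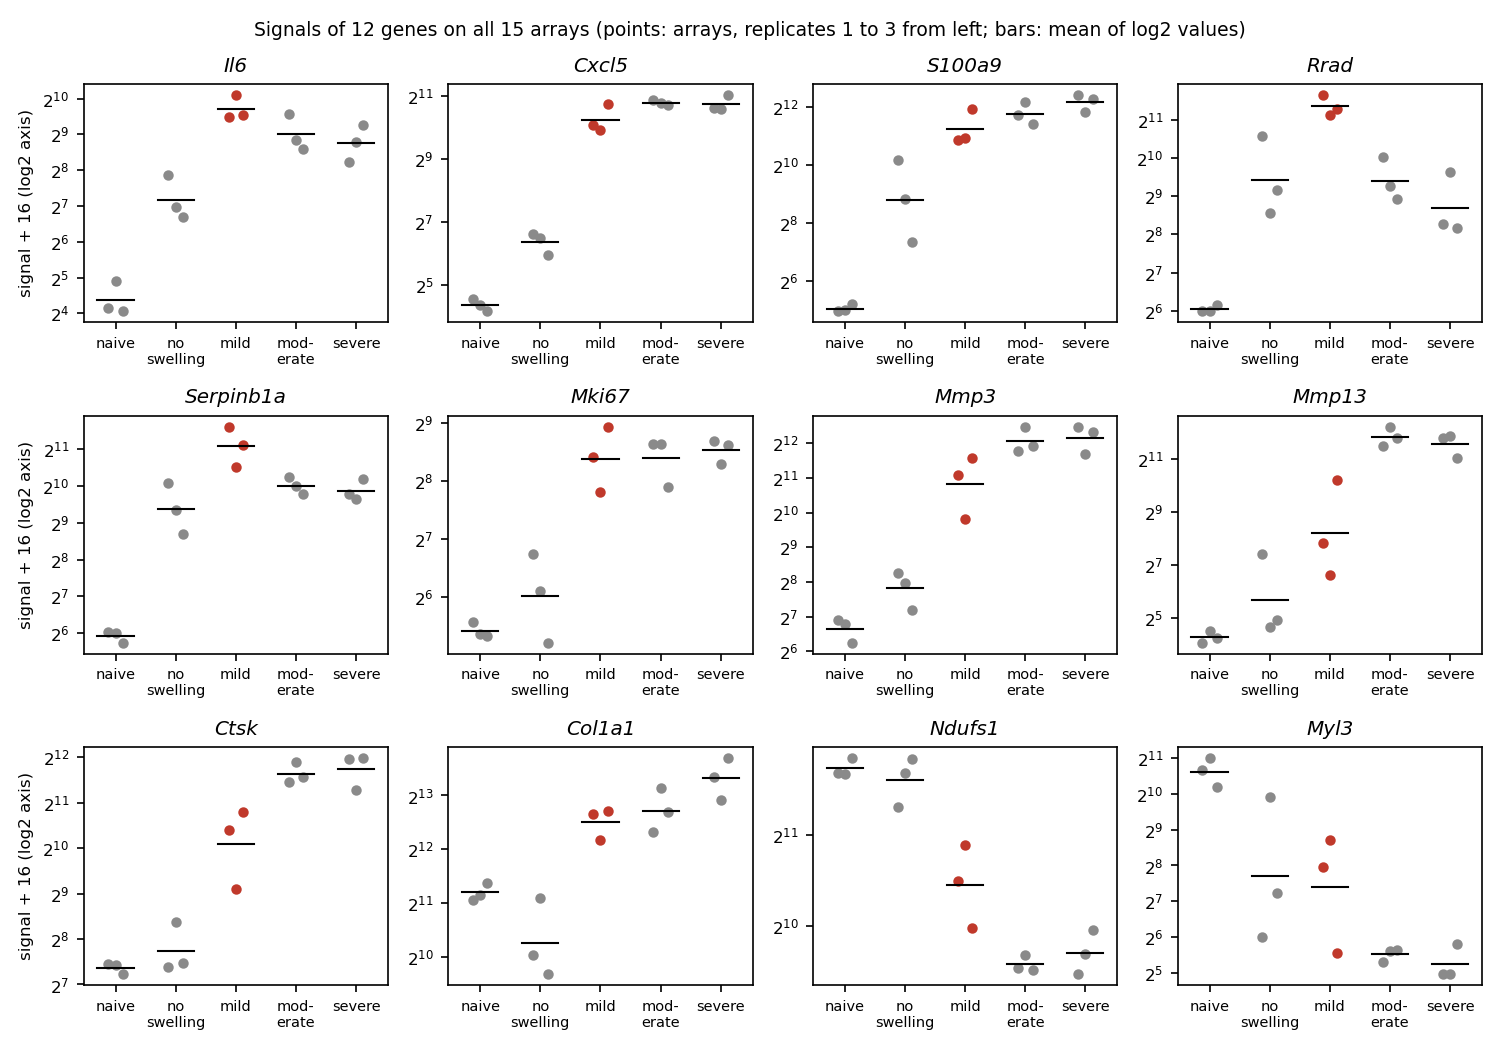
Signals plus 16, in intensity units on log2 axes, of 12 genes on all 15 arrays. Points are arrays in the order of replicates 1 to 3, with the mild arrays in red, and bars are means of the log2 values of the 3 arrays of a group. Rrad and Serpinb1a are highest in mild joints, and Mmp13, Ctsk and Ndufs1 lie farther from naive in moderate than in mild joints.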

How the data were processed

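Total RNA of synovium was hybridized to 1-colour Affymetrix arrays, 1 per sample, 3 per group. The deposited intensity values are MAS5 signals on a linear scale, per the submitters' processing notes (version not given in the sources used here), and each array's 2% trimmed mean was 150 in the deposited intensity values, over 45101 probe sets. Of these, 34945 carried 1 gene symbol in the platform annotation and were used, 13 control probe sets with a symbol and 932 probe sets with several were not, and 9211 are not listed there.

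Signals were taken to log2(signal + 16), each gene by its brightest probe set, keeping genes whose signal exceeded the 40th percentile of an array on 3 or more of the 15. The 5 group means were fitted over all 15 arrays with limma 3.58.1 (lmFit and eBayes with an intensity trend, R 4.3.3), with Benjamini-Hochberg adjustment over 14314 genes. An exact permutation test of 3 against 3 samples cannot go below 0.1, so none was used. The procedure was tested on simulated data, in which genes varied independently and a small share was shifted, all upward in the mild arrays. That simulation held no effect shared by the genes of an array. It therefore cannot speak to the scaling or to the differences among the mild arrays. The number of arrays limits the precision.

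Named genes are the 12 highest and 12 lowest changes, up to 3 called members of each list by lowest p, the 6 called genes with the largest spread over the mild arrays, the 6 highest and 6 lowest of each other comparison, and a fixed panel. Other members named, such as those that moved against their list, complete a small count or did not pass, were picked with their values in view. The 58 gene lists and the comparison itself were chosen with earlier results of these data known. Alternatives were pseudocounts, filters, scalings, probe set summaries, array weights, a replicate block, fits on only the groups compared and leaving out each array. Counts of list members without 1 array, with control scaling, with averaged probe sets or in fits on only the groups compared were added after seeing the data. The labels do not say that replicate numbers pair the arrays, so the main fit held no block. Promoter letters came from RefSeq (GRCm38.p6).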

Additional observations from a re-analysis of the deposited data

How the results depend on the processing

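The counts of genes called in mild against naive joints (3303 higher and 2440 lower) stayed within 1.5 times under every alternative tried except 2. Scaling on the hybridization controls gave 5456 and 154, and testing every probe set by itself gave 6052 and 4834. For mild against no swelling the same 2 settings gave 7368 and 41, and 5801 and 4203. For moderate against mild joints, scaling on the controls gave 131 and 178, array quality weights 1378 and 1334, fitting only the groups compared 3 and 9, and every probe set 816 lower. For severe against mild joints, aligned medians gave 532 higher, control scaling 129 and 499, every probe set 1399 and 1547, weights 2119 and 1756, and fitting only the groups compared 31 and 55. Testing every probe set runs more tests, and fitting only the groups compared uses fewer samples; for the other settings the cause was not tested.

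Leaving out 1 array at a time gave 2586 to 3536 higher and 1768 to 2641 lower for mild against naive, 2511 to 3487 and 1593 to 2414 for mild against no swelling, 78 to 1076 and 119 to 957 for moderate against mild, and 119 to 1387 and 185 to 1305 for severe against mild.

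With the replicate number as a block the counts were 3161 and 2287 for mild against naive, 3142 and 2095 for mild against no swelling, 308 and 394 for moderate and 611 and 695 for severe against mild. Deviations of same-numbered mild and naive arrays correlated at 0.08, 0.14 and -0.01, and those of differently numbered arrays at -0.15 to 0.12. With 3 arrays a group these values cannot settle whether the numbers pair samples, and the labels do not say.

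With control scaling the mild against naive change reversed in sign for Acta1 (0.19), Angpt1 (0.25), Casq1 (0.12), Cd59a (0.0065), Gclc (0.12), Herpud1 (0.19), Idi1 (0.16), Nfatc1 (0.12), Rgs5 (0.19), Sln (0.24), Sod1 (0.055) and Sod2 (0.23). None of these values was called by limma, with adjusted p from 0.57 (Angpt1) to 0.99 (Cd59a). Averaging the probe sets of a gene reversed the sign for Hsp90aa1 (-0.031, adjusted p = 0.84) and Nfatc1 (0.12, adjusted p = 0.59), neither called. For Sln, leaving out 1 array at a time gave -0.57 to 0.015, the latter without mild replicate 3. The cause of these reversals was not tested. Signals near the floor, as for Tnf and Il17a, limit what could be detected.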
